A study of Mus musculus with 29 samples.

Results

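Tissue macrophages were followed through 10 genes chosen by symbol: C1qa, C1qb, C1qc, Csf1r, Cx3cr1, Clec4f, Adgre1, Trem2, Cd68 and Tyrobp. All 10 were present among the 24346 genes of the deposited FPKM table, a unit in which fragments are scaled by transcript length and library depth. The bulk RNA came from the liver, where the resident macrophages are Kupffer cells, and from the hippocampus, where they are microglia. Male C57BL/6J mice were first fed a high-fat diet for 10 weeks, and every group shares that history. For the next 4 weeks they were given control chow with intermittent fasting (CC-IF), control chow ad libitum (CC), high-fat food with alternate-day fasting (HFD-IF) or high-fat food ad libitum as before (HFD). Liver had 4 CC-IF, 4 CC, 2 HFD-IF and 4 HFD libraries, and hippocampus had 3 CC-IF, 4 CC, 4 HFD-IF and 4 HFD libraries. The series describes 32 samples as biological replicates, of which 29 were analysed, so a p-value speaks for the variation among samples of that kind. The animals' age at the start is not given in the sources used here. Libraries are named by the index in their column heading, counted from 0, because the columns carry no sample number from the labels.

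Macrophages of both organs depend on the receptor CSF1R, which binds the cytokines CSF1 and IL-34. They are a main source of C1q, the recognition molecule of the classical complement pathway, which is assembled from chains encoded by C1qa, C1qb and C1qc. Adgre1 encodes the surface antigen F4/80, Cd68 a glycoprotein of the endosome and lysosome, and Clec4f a C-type lectin restricted in the mouse to Kupffer cells. Cx3cr1 encodes the fractalkine receptor, which is abundant on microglia. TREM2 is a receptor for lipids and lipoproteins that signals through the adaptor encoded by Tyrobp.

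The 3 C1q genes are neighbours on the minus strand of chromosome 4. In the GENCODE annotation of GRCm38, C1qb spans chr4:136880129-136886187, C1qc spans chr4:136889804-136893065 and C1qa spans chr4:136895917-136898803, with no other annotated gene between them. Clec4f lies at chr6:83644542-83656187, Cx3cr1 at chr9:119901616-120069879, Adgre1 at chr17:57358691-57483527, Trem2 at chr17:48346401-48354147, Cd68 at chr11:69664213-69666153 and Tyrobp at chr7:30413760-30417585. RefSeq promoter windows on GRCm38.p6 were searched for 6 of the 10 members. Each ran from 250 bases before to 50 after the gene start used in that set. For the 4 windows shown, that start is not the GENCODE gene start. The Cx3cr1 window lies wholly inside the GENCODE span of the gene, so it does not describe the sequence before that start. Below are the windows of the neighbours C1qb and C1qc, the C1q pair whose mean log2 ratio differed least between the tissues. Those of Clec4f and Cx3cr1 follow, the members with the sharpest difference between the tissues. Each is written in the direction of transcription, all 4 on the minus strand, at chr4:136886151-136886450, chr4:136892865-136893164, chr6:83656067-83656366 and chr9:120068247-120068546 in the order shown. Capitals mark GAGGAA or its reverse complement TTCCTC, a purine-rich core of the kind bound by ETS factors such as PU.1.
C1qb: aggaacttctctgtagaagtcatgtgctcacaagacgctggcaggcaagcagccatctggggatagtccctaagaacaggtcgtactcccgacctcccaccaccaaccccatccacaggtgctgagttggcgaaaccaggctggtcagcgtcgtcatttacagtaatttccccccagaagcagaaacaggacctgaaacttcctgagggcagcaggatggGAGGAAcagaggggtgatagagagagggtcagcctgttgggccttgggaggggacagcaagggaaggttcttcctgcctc
C1qc: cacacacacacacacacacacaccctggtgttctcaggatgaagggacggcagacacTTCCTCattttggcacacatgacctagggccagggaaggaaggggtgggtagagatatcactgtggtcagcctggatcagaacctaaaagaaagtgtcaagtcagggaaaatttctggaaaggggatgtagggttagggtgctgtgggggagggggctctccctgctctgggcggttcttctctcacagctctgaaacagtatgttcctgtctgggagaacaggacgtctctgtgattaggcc
Clec4f: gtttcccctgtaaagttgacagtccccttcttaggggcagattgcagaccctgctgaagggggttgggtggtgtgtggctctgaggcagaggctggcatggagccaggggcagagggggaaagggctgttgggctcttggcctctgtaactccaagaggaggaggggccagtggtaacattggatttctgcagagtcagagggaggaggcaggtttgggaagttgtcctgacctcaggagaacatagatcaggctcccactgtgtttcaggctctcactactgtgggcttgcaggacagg
Cx3cr1: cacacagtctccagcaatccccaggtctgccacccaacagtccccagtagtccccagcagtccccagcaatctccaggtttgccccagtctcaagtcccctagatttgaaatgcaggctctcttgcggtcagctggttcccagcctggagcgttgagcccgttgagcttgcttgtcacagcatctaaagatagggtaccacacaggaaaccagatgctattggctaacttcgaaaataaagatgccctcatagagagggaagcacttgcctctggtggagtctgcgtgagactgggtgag
GAGGAA on either strand occurred in the windows of 4 of the 6 members searched, C1qb, C1qc, Cd68 and Trem2. It occurred in 27.3% of 20748 promoters of the same length. Those promoters were not selected in the way the 6 were, so the member counts below and here were not tested against them. TTGCNNAA, searched on both strands as a C/EBP site, occurred in 2 of the 6, Cd68 and Trem2, and in 10.1% of promoters. TATAAA, likewise searched on both strands, occurred in 0 of the 6 and in 12.1% of promoters. No matches of different motifs overlapped, and a match describes the window only.

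Depth was estimated from low FPKM values at 9.7 to 16.6 M (mega) fragments in liver and 12 to 36.9 M in hippocampus, which is approximate. In all 40 within-group library pairs, 99.99% or more of the nonzero values were unequal, so no library was a copy of another. Most marker genes checked fitted the labelled tissues. The Kupffer cell genes Vsig4, Marco and Cd5l were listed at 0 in 14, 14 and 13 of the 15 hippocampal libraries, while the livers spanned 5.53 to 21.9 FPKM for Vsig4. The microglial gene P2ry12 spanned 0.269 to 1.73 FPKM in liver and 5.69 to 11.7 FPKM in hippocampus, and Tmem119 spanned 0 to 0.937 FPKM in liver and 4.07 to 6.23 FPKM in hippocampus. Sall1, of the same list of 13 homeostatic microglia markers, went the other way, at 7.23 to 21.05 FPKM in liver and 3.58 to 4.82 FPKM in hippocampus. The 13 summed to at most 58.6 FPKM in any liver and at least 69.3 FPKM in any hippocampal library. A listed 0 is not proof of absence, because the albumin gene Alb was listed at 0 in 8 of 14 livers. One liver, HFD-IF library 1, stood apart for the members and is named where a result rests on it.

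Liver and hippocampus shared most of the macrophage transcripts but in different proportions. Over all libraries, liver carried more Clec4f, Adgre1, Cd68 and C1q chain RNA, hippocampus carried more Cx3cr1 and Trem2, and Csf1r did not pass the test. By limma with Benjamini-Hochberg adjustment over 14415 genes, 9 of the 10 members differed between the tissues, where 91.9% of all tested genes did: 7 were higher in liver, as were 44.9% of genes, and 2 were lower, as were 47%. Genes entered that fit through a mean of at least 1 FPKM in either tissue. Clec4f and Adgre1 entered through liver only, with hippocampal means of 0.00272 and 0.820 FPKM, and Cx3cr1 through hippocampus only, with a liver mean of 0.527 FPKM. Those 3 had to differ, so their differences are given without a p and nothing is read from the counts. In bulk tissue, more cells of a type and more RNA per cell cannot be told apart.

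Clec4f spanned 15.7 to 45.3 FPKM over the 14 livers with a median of 24.2, and it was listed at 0 in 13 of the 15 hippocampal libraries, the other 2 having 0.0295 FPKM in a CC-IF library and 0.0113 FPKM in a CC library. No hippocampal library came near any liver, and log2(FPKM + 1) was higher in liver by 4.77 ± 0.10 (SE). Adgre1 had 3.21 to 15.6 FPKM and a median of 5.76 in liver and 0.620 to 1.16 FPKM with a median of 0.774 in hippocampus. Its log2 difference was 1.95 ± 0.13, and the ranges did not overlap.

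Cx3cr1 ran the other way. Liver had 0.0821 to 2.51 FPKM with a median of 0.379, and hippocampus had 6.08 to 8.71 FPKM with a median of 7.36. The log2 difference was -2.47 ± 0.11, and every hippocampal library lay above every liver, HFD-IF library 1 included. Trem2 was also lower in liver, at 0.346 to 9.91 FPKM with a median of 0.623, than in hippocampus, at 2.86 to 6.39 FPKM with a median of 4.15. Its log2 difference was -1.27 ± 0.21 (limma adjusted p = 2.84e-06), and here the single liver at 9.91 FPKM exceeded every hippocampal library while the other 13 livers stayed at or below 2.35 FPKM, under all 15.

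Cd68 averaged 9.66 FPKM over the livers and 4.08 FPKM over the hippocampal libraries. Its log2 difference, with regimens weighted equally, was 0.95 ± 0.18 (limma adjusted p = 2.16e-05). Without HFD-IF liver library 1 the liver mean of Cd68 was 7.43 FPKM and the log2 difference 0.63. C1qc, C1qb and C1qa were higher in liver by 0.88, 0.85 and 0.58 on the log2 scale (limma adjusted p = 3.47e-06, 4.34e-05 and 0.000437), and without that library by 0.64, 0.56 and 0.36. Tyrobp was higher in liver by 0.40 ± 0.18, with a limma adjusted p of 0.0405. That call was lost in 18 of 32 alternatives, and without HFD-IF liver library 1 the difference was 0.10 with an adjusted p of 0.504. Csf1r, at chr18:61100598-61132149, averaged 15.2 ± 5.85 FPKM in liver and 13.1 ± 1.17 FPKM in hippocampus (SD, n = 14 and 15). Its log2 difference of 0.15 had a 95% interval of -0.11 to 0.41 (limma adjusted p = 0.246), it turned to -0.06 without HFD-IF liver library 1, and it was 0.36 with an adjusted p of 0.00103 without HFD-IF liver library 0.

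Csf1r served as a common denominator within each library, and these ratios are a description. The ratio of Cx3cr1 to Csf1r was 0.00481 to 0.0823 in liver and 0.476 to 0.635 in hippocampus. The ratio of Adgre1 to Csf1r was 0.332 to 0.511 in liver and 0.0480 to 0.0980 in hippocampus. The ratio of Csf1r to C1qc was 0.315 to 0.469 in liver and 0.575 to 0.736 in hippocampus. Those 3 ranges were disjoint between the tissues. The ratio of Cd68 to Csf1r was 0.423 to 1.27 in liver and 0.260 to 0.415 in hippocampus, also disjoint. The ratio of Tyrobp to Csf1r was 1.04 to 2.52 in liver and 1.03 to 1.65 in hippocampus, and that of Trem2 to Csf1r was 0.0303 to 0.324 in liver and 0.221 to 0.577 in hippocampus, so both overlapped.

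The ratio of C1qa to C1qc spanned 0.846 to 1.35 with a median of 1.04 in liver and 1.10 to 1.59 with a median of 1.31 in hippocampus. The ratio of C1qb to C1qc had medians of 0.946 in liver and 0.949 in hippocampus. Between liver and hippocampus (n = 14 livers and 15 hippocampal libraries), the mean log2 ratio of C1qa to C1qc differed by -0.31. The difference was -0.30 for C1qa to C1qb and -0.01 for C1qb to C1qc. In liver the standard deviations were 0.21, 0.27 and 0.14 in that order. In hippocampus all were 0.14, so there no pair was closer than the others. These ratios were chosen after the values had been seen and carry no test.

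**Figure D1:**
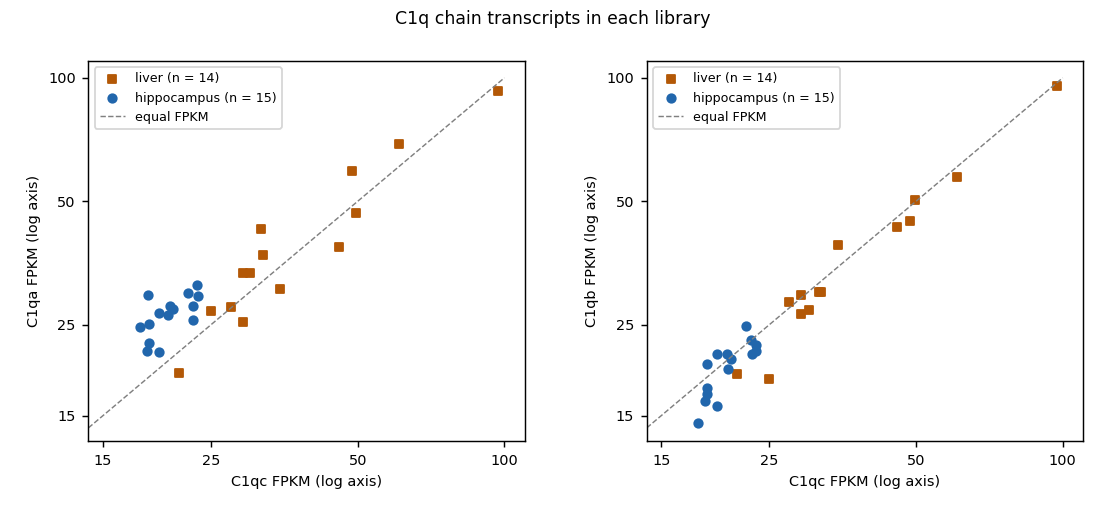
C1qa against C1qc FPKM (left) and C1qb against C1qc FPKM (right), on log axes, with 1 point per liver (squares, n = 14) or hippocampal library (circles, n = 15) and a dashed line of equal FPKM. The hippocampal points lie above the line for C1qa, at ratios of 1.10 to 1.59, while points of both tissues follow the line for C1qb, and the liver at the upper right is HFD-IF library 1.

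The genes that feed these receptors had their own tissue pattern, given as levels without a test. The fractalkine gene Cx3cl1, whose product is the ligand of the CX3CR1 receptor, spanned 0.144 to 0.996 FPKM in liver and 104 to 131 FPKM in hippocampus. Of the CSF1R ligands, Il34 spanned 0.912 to 3.23 FPKM in liver and 8.25 to 13.7 FPKM in hippocampus, while Csf1 spanned 2.82 to 6.71 FPKM in liver and 4.79 to 6.50 FPKM in hippocampus. The proteases that act with C1q, encoded by C1ra and C1s1, spanned 81.0 to 148 and 169 to 271 FPKM in liver, against 0.151 to 0.601 and 0.0623 to 0.608 FPKM in hippocampus. C3, the central complement component, spanned 1488 to 3144 FPKM in liver and 0.0748 to 0.571 FPKM in hippocampus. Hippocampus therefore held C1q chain RNA at 14.4 to 31.2 FPKM beside C1ra, C1s1 and C3 RNA that stayed below 1 FPKM in every library.

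In liver, fasting on high-fat diet gave 2 libraries that lay far apart. Trem2 was 0.346 and 9.91 FPKM in HFD-IF libraries 0 and 1, against 0.892, 0.992, 0.386 and 0.530 FPKM in HFD livers. Cd68 was 5.52 and 38.7 FPKM in the HFD-IF livers, against 9.38, 7.39, 6.50 and 7.84 FPKM in HFD livers. Tyrobp was 13.4 and 77.1 FPKM in the HFD-IF livers, against 24.9, 25.7, 17.2 and 19.4 FPKM in HFD livers. In each of these genes 1 HFD-IF liver lay below every HFD liver and the other above all of them.

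HFD-IF library 1 was the highest of the 14 livers for 9 of the 10 members, where 14.39% of all tested liver genes had their maximum in it. It was at least 2-fold above the median of the other 13 livers in 9 members, against 6.55% of all tested genes, and the median of all tested genes stood at 0.971 of that level. These counts describe a library singled out for its values. The excess was uneven. Relative to the highest of the other 13 livers, Trem2 was 4.22-fold, Cx3cr1 3.62-fold, Cd68 3.03-fold and Tyrobp 2.67-fold. Adgre1, C1qb, C1qc, Csf1r and C1qa were 1.34- to 1.76-fold, and Clec4f was 0.951-fold, its highest value being 45.3 FPKM in CC library 1. Per unit of Csf1r, Cd68 was 1.27 in this library and 0.423 to 0.739 in the other 13 livers. Clec4f per Csf1r, at 1.41, lay within the range of 1.12 to 2.44 of those livers.

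**Figure D2:**
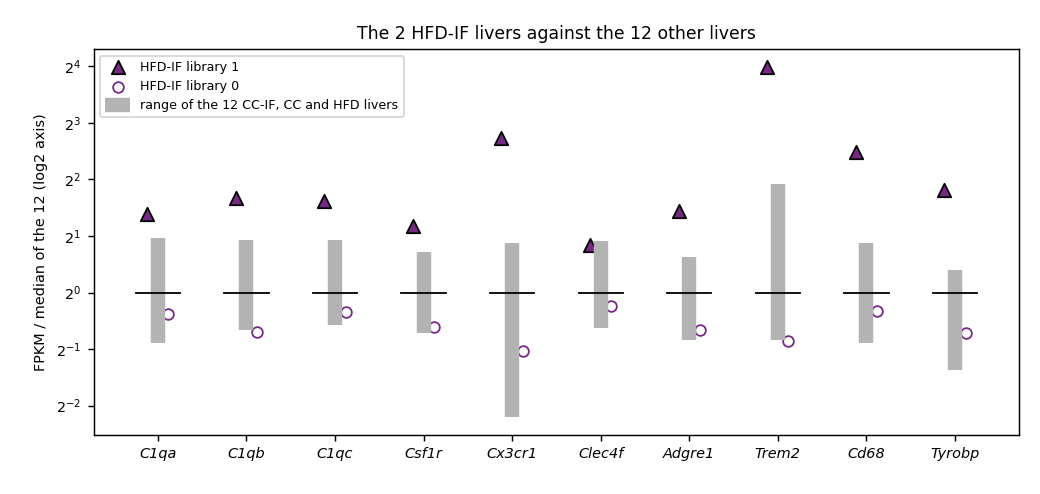
FPKM of each member in HFD-IF library 1 (triangles) and HFD-IF library 0 (open circles), divided by the median of the 12 CC-IF, CC and HFD livers, whose range is the grey bar, on a log2 axis. HFD-IF library 1 lies above the grey bar for 9 members, up to 15.9 times the median for Trem2, and within it for Clec4f, while HFD-IF library 0 lies at 0.489 to 0.843 of the median.

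HFD-IF library 0 had the lowest value of the 14 livers for C1qb, at 18.4 FPKM, and for Trem2. Its C1qa, C1qc and Csf1r were 27.0, 24.9 and 8.88 FPKM. It ranked from 2nd to 5th lowest for the other 8 members, so the 2 libraries of the group lay on opposite sides of most livers.

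The test of the group reflected this spread. In limma over the 4 regimens, 0 of the 9 tested members passed the adjusted threshold of 0.05 for HFD-IF against HFD livers, where 1.32% of 11497 genes did; 0 members and 2043 genes had an unadjusted p under 0.05. Cx3cr1 was not tested in liver because its mean FPKM was below the filter of 1, and Trem2 entered only through HFD-IF library 1, its mean being 0.803 FPKM without it. The log2 changes of the 9 were all positive with a median of 0.39, against -0.01 over all genes. The largest were 1.19 ± 0.61 for Trem2 (limma adjusted p = 0.336) and 0.88 ± 0.55 for Cd68 (limma adjusted p = 0.419).

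The direction depended on which HFD-IF liver was kept. Without library 1, all 8 members tested were lower in HFD-IF than in HFD livers, by -0.42 for Cd68 to -0.97 for C1qb on the log2 scale. None of the 8 passed limma's adjusted threshold, where 0.0439% of genes were called lower and 0% higher. Without library 0, 6 of 9 members were called higher, where 7% of genes were. The group is then library 1 alone, which was singled out as high beforehand and through which Trem2 passed the filter, so nothing is read from that count. The log2 differences were 2.70 for Trem2, 2.19 for Cd68, 1.79 for Tyrobp, 1.35 for C1qc, 1.35 for C1qb, 1.32 for Adgre1, 1.25 for C1qa, 0.96 for Csf1r and 0.62 for Clec4f, the last 3 not called. With 1 library left in the group, its variance is taken from the other groups, so the values describe that liver.

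Transcripts of other cell types moved with the members in HFD-IF library 1. Of the 14 general macrophage markers, all 14 had their liver maximum there, and their summed level was 468 FPKM in it, 110 FPKM in HFD-IF library 0 and 91.1 to 208 FPKM in the other 12 livers. Of 10 monocyte markers, 9 peaked there, and the sums were 59.7 FPKM in it, 8.72 FPKM in HFD-IF library 0 and 10.9 to 21.9 FPKM in the others. Ccr2, the chemokine receptor of inflammatory monocytes, was 3.64 FPKM in it and at most 0.827 FPKM elsewhere, and Ly6c2 was 4.26 FPKM and at most 1.07 FPKM. No defining monocyte marker was at 0 in every other liver.

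Of 11 further Kupffer cell markers, 7 peaked in HFD-IF library 1, with sums of 318 FPKM in it, 192 FPKM in HFD-IF library 0 and 137 to 272 FPKM in the other 12 livers. Cd5l, a scavenger protein secreted by macrophages, was 121 FPKM in it and at most 38.8 FPKM elsewhere, whereas Timd4, Vsig4 and Marco were 3.62, 21.9 and 13.3 FPKM against maxima of 3.40, 20.0 and 13.1 FPKM. Folr2 was 5.78 FPKM, below its maximum of 9.39 FPKM. Markers of lipid-associated macrophages summed to 291 FPKM in it, 62.0 FPKM in HFD-IF library 0 and 65.9 to 213 FPKM in the others, with 7 of 10 at their maximum there. Gpnmb was 25.2 FPKM in it and at most 7.62 FPKM elsewhere. The other 3 were not highest there, with Fabp5 at 10.4 FPKM against a maximum of 99.9 FPKM, Cd9 at 45.3 FPKM against 49.7 FPKM and Spp1 at 39.2 FPKM against 39.4 FPKM.

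The same library also led for markers outside the macrophage lineage. Fibroblast and stellate cell markers summed to 547 FPKM in it, 175 FPKM in HFD-IF library 0 and 146 to 261 FPKM in the other 12 livers, with 10 of 12 at their maximum and the collagen gene Col1a1 at 64.1 FPKM against at most 14.1 FPKM. Cycling cell markers summed to 22.3 FPKM in it, 2.02 FPKM in HFD-IF library 0 and 1.67 to 5.34 FPKM in the others, with all 6 at their maximum. Endothelial markers went the other way, at 165 FPKM in it, 196 FPKM in HFD-IF library 0 and 190 to 264 FPKM in the others. Neutrophil markers summed to 11.2 FPKM in it, 2.40 FPKM in HFD-IF library 0 and 0.305 to 8.48 FPKM in the others. For T and NK cells the sums were 6.52, 3.62 and 1.14 to 4.90 FPKM in the same order, for dendritic cells 10.6, 6.16 and 4.92 to 8.93 FPKM, and for B and plasma cells 2.94, 1.94 and 0.861 to 2.77 FPKM. These 4 sums were also the highest of the 14 livers, although 0 of the 6 B and plasma cell markers peaked there. This library also had the most genes above 0, 16343 against 15087 to 15864, and the highest estimated depth. In HFD-IF against HFD livers the list medians were accordingly 0.56 for general macrophage markers, 0.59 for 4 tested monocyte markers and 0.76 for 11 tested fibroblast markers with both HFD-IF libraries, and -0.28, -0.49 and 0.11 without library 1, when 13, 3 and 11 were tested. None of these genes passed limma's adjusted threshold with both libraries. Of 16 lysosome genes 1 did, Ctsz, which encodes a cathepsin, at 0.45 (limma adjusted p = 0.0394). For Ctsz the HFD-IF livers were alike, at 174.7 ± 1.144 FPKM against 127.6 ± 4.314 FPKM in HFD livers (mean and SD). HFD-IF library 1 had 173.9 FPKM of it, below the maximum of 177.1 FPKM in the other livers. The part of these cell types and of depth in the values of the members was not tested.

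For CC-IF against CC livers, 1 of the 9 tested members, the Kupffer cell lectin Clec4f, passed the test. Clec4f was 15.7, 20.0, 16.7 and 19.9 FPKM in CC-IF livers, against 24.9, 45.3, 40.9 and 24.3 FPKM in CC livers. Every CC-IF liver lay below every CC liver, and also below both HFD-IF livers, at 20.4 and 43.0 FPKM, and all HFD livers, at 32.6, 34.5, 21.9 and 24.1 FPKM. The non-overlap with CC, HFD-IF and HFD livers was shared in the same direction by 11.4%, 8.61% and 12.9% of tested genes. Clec4f averaged 18.1 ± 2.21 FPKM in CC-IF and 33.8 ± 10.8 FPKM in CC livers (SD, n = 4 each), and fell by 0.82 ± 0.25 on the log2 scale (SE, limma adjusted p = 0.0297). It was the only one of the 9 tested members that passed, where 9.77% of genes were called lower, 14.2% higher and 24% in either direction. The call was lost with no filter on low genes (adjusted p = 0.0542) and without CC library 1 (0.0927) or 2 (0.0837) or CC-IF library 0 (0.0743) or 2 (0.0637).

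C1qa was 30.6, 33.5, 19.1 and 25.4 FPKM in CC-IF livers, against 36.9, 69.0, 59.2 and 33.5 FPKM in CC livers. The ranges met at 33.5 FPKM. Its log2 difference of -0.81 ± 0.34 was as large as that of Clec4f but did not pass (limma adjusted p = 0.101). It passed when either HFD-IF library was left out of the shared variance, with limma adjusted p = 0.0283 without library 0 and 0.0278 without library 1, where 11.3% and 11.4% of genes were called lower. The other chains were lower by less than their error allowed to call, C1qb by -0.51 ± 0.41 and C1qc by -0.50 ± 0.36.

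Csf1r was 13.99, 13.1, 8.21 and 11.4 FPKM in CC-IF livers, against 12.6, 22.2, 16.8 and 12.9 FPKM in CC livers. Adgre1 was 5.48, 5.64, 3.21 and 3.79 FPKM in CC-IF livers, against 4.69, 8.87, 7.68 and 5.87 FPKM in CC livers. Both groups overlapped in either gene, with log2 differences of -0.42 ± 0.31 and -0.49 ± 0.33 (limma adjusted p = 0.359 and 0.317). Trem2 gave the smallest difference, -0.06 ± 0.50, with 2.35, 0.627, 0.370 and 0.346 FPKM in CC-IF livers against 0.658, 1.72, 0.615 and 0.619 FPKM in CC livers. All 9 differences were negative, with a median of -0.49 against 0.02 over all genes. Cx3cr1, outside the test, had 0.177 to 0.570 FPKM in CC-IF livers and 0.199 to 0.611 FPKM in CC livers.

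**Figure D3:**
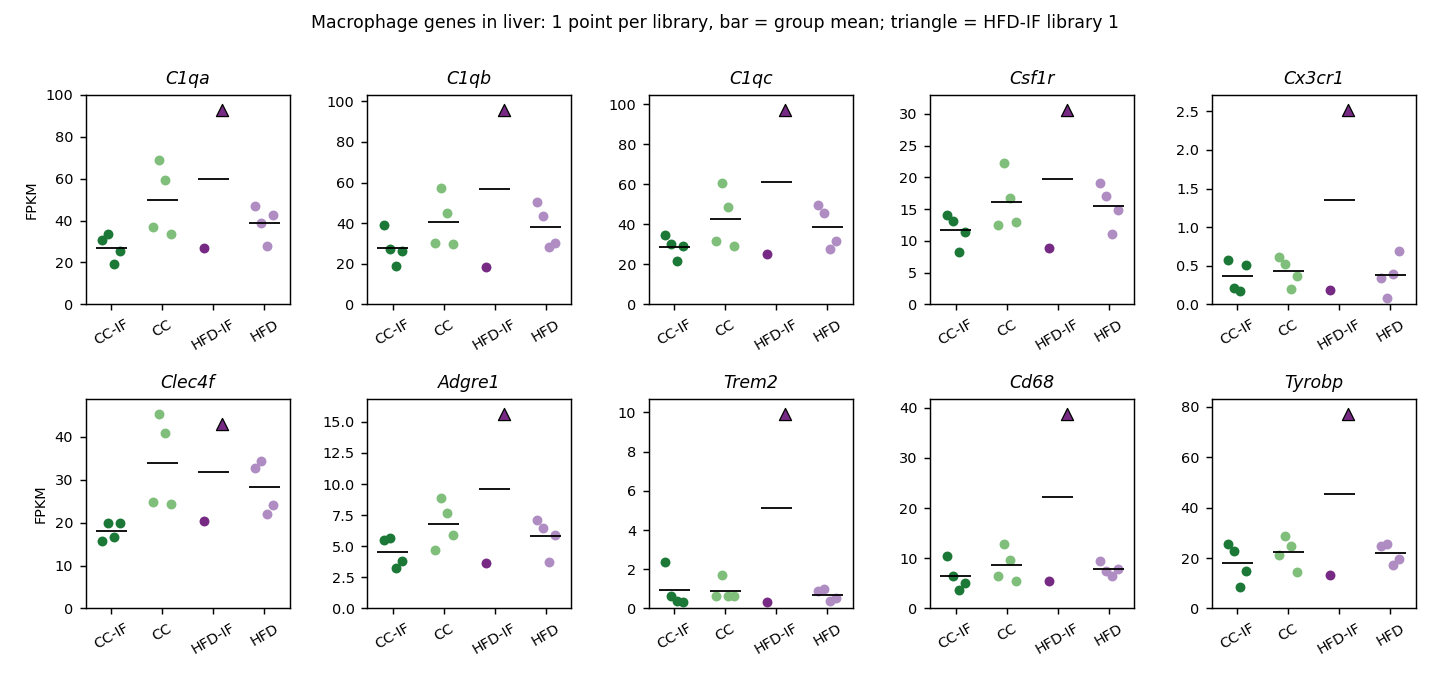
FPKM of the 10 members in every liver by regimen (CC-IF, CC, HFD-IF, HFD), with 1 point per library, a bar at the group mean and HFD-IF library 1 as a triangle. The CC-IF livers lie below all others for Clec4f, at 15.7 to 20.0 FPKM, and the triangle lies above all other points for 9 of the 10 members.

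Within CC livers most members were ordered alike. Library 1 was the highest and library 2 the next highest CC liver for C1qa, C1qb, C1qc, Csf1r, Clec4f, Adgre1, Cd68 and Tyrobp. Cx3cr1 and Trem2 differed, with library 2 the lowest CC liver for both, at 0.199 and 0.615 FPKM. C1qa averaged 27.1 ± 6.34 FPKM in CC-IF livers and 49.7 ± 17.2 FPKM in CC livers (SD, n = 4 each). CC-IF library 2 had the lowest value of all 14 livers for 6 members.

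Genes around the members were counted in CC-IF against CC livers, where 14.2% of all tested genes rose and 9.77% fell. Of the 11 other Kupffer cell markers, 0 rose and 2 fell: the complement gene C6 by -1.28 and the folate receptor gene Folr2 by -0.86 on the log2 scale (limma adjusted p = 0.00924 and 0.0470), with a list median of -0.35. Hepatocytes also make complement components. Of 14 general macrophage markers, 0 rose and 1 fell, the scavenger receptor Msr1 by -0.65 (adjusted p = 0.0469), with a median of -0.32. Of 10 tested TREM2 and TYROBP partners, 0 rose and the kinase Lyn fell by -0.31 (adjusted p = 0.0458). Of 8 tested lipid-associated macrophage genes, 0 rose and 1 fell, Fabp5 by -2.71 (adjusted p = 0.000593), with a median of 0.16.

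Other lists held genes that rose in the same contrast, where 14.2% of all tested genes rose and 9.77% fell. Of 16 lysosome and phagocytosis genes, 4 rose and 0 fell, among them the progranulin gene Grn by 0.85, the cholesterol transporter Npc1 by 0.63 and the prosaposin gene Psap by 0.45 (limma adjusted p = 0.00154, 0.0152 and 0.0147). These genes are expressed by many cell types. Of 12 tested complement partners 1 rose, C3 by 0.50, and 0 fell. Of 10 tested CSF1R ligands and transcription factors 1 rose, Sall1 by 0.74, and 0 fell. Of 5 tested genes of the fractalkine, CD200 and CD47 axes 1 rose, Cd47 by 0.44, and 0 fell. Of 6 tested homeostatic microglia genes, Sall1 and the fructose transporter Slc2a5, at 1.02, rose and 0 fell, although Sall1 was higher in liver, at 7.23 to 21.0 FPKM, than in hippocampus, at 3.58 to 4.82 FPKM. Of 12 endothelial markers 0 rose and 2 fell, Cdh5 by -0.43 and Dnase1l3 by -0.42. Of 11 tested fibroblast and stellate cell markers 0 rose and 1 fell, the smooth muscle actin gene Acta2 by -1.06. Of 8 hepatocyte markers 2 rose, the cytochrome gene Cyp2e1 by 1.32 and the urea cycle gene Cps1 by 0.49, and 0 fell. Among markers of brain cells, Aqp4 at 1.13 and Syt1 at 0.52 rose and Cnp at -0.65 fell. The part of these cell types in the values of the members was not tested.

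The switch to chow without fasting gave no call among the members in liver. For CC against HFD livers, limma called 0 of 9, where 2.3% of genes were called, and 0 of the 9 had an unadjusted p under 0.05. The log2 differences ran from 0.00 for Tyrobp to 0.30 for C1qa, all with intervals that held 0. For C1qa the 95% interval was -0.43 to 1.04, so changes of that size were not resolved. In CC-IF against HFD livers, which combines diet and fasting, 0 of 9 passed, where 23.7% of genes did. Clec4f came nearest at -0.60 ± 0.25 (limma adjusted p = 0.0984), and 1 member had an unadjusted p under 0.05. In that comparison 4 of 16 lysosome genes rose, among them Grn by 0.79, Npc1 by 0.63 and Ctsz by 0.27, and 0 fell. C3 by 0.70, C2 by 0.60, Cd47 by 0.52, Sall1 by 0.62, Maf by 0.44 and Mertk by 0.34 also passed limma's adjusted threshold. Of the markers of other cells, Cps1 rose by 0.52 and Gja1 by 0.36, while Alas2 at -0.83, Cdh5 at -0.41 and Aldh1l1 at -0.46 fell. Alb passed too, but no fold is given because it was listed at 0 in most livers. In CC against HFD livers, Fabp5 rose by 2.41 and Aldh1l1 fell by 0.52. These comparisons share groups with the fasting comparisons.

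The contrasts that hold the HFD-IF livers turned on the same library. For CC-IF against HFD-IF livers limma called 0 of 9 members, where 0.591% of genes were called, and 2 members had an unadjusted p under 0.05. The interaction, the effect of fasting on chow less its effect on high-fat diet, also gave 0 of 9 calls, where 1.11% of genes were called, and 2 members had an unadjusted p under 0.05. Its median over the members was -0.92, against 0.04 over all genes. Of the listed genes, Sall1 was called at 1.06 for CC-IF against HFD-IF and at 1.18 for the interaction, and Aldh1l1 at 0.87 for the interaction and at -0.81 for HFD-IF against HFD. Without HFD-IF library 0, 9 of 9 members were called lower in both contrasts, where 7.31% and 6.2% of genes were. HFD-IF is then library 1 alone, Trem2 is among the 9 through that library, and nothing is read from the count. Without HFD-IF library 1, 0 of 8 were called in either, and the medians were 0.20 and 0.05. In those fits 0.0351% of genes were called higher and 0.00877% lower in CC-IF than in HFD-IF livers, and 0.228% and 0.0175% for the interaction.

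**Figure D4:**
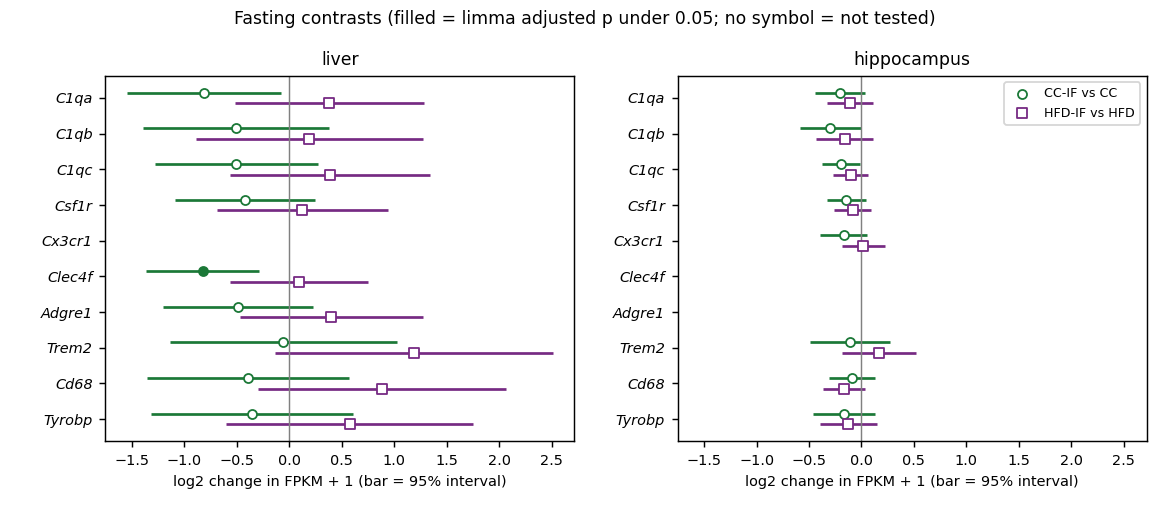
Log2 change in FPKM + 1 with 95% limma intervals for CC-IF against CC (circles) and HFD-IF against HFD (squares) in liver (left) and hippocampus (right), filled where the limma adjusted p is under 0.05. Clec4f in liver, at -0.82, is the only filled symbol, and the hippocampal changes lie between -0.30 and 0.17.

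In hippocampus the members varied little. The coefficient of variation over 15 libraries was 8.89% for Csf1r, 9.86% for C1qc and 10.7% for Cx3cr1, and reached 21.1% for Trem2. In liver the same quantity was 38.5% for Csf1r, 49.5% for C1qc and 172% for Trem2, or 28.4%, 32.5% and 73.9% without HFD-IF library 1. Of the 10 members, 8 passed the filter, and Adgre1 and Clec4f did not.

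No regimen contrast called a member in hippocampus. Limma called 0 of 8 in the interaction, in CC against HFD, in CC-IF set against HFD-IF or against HFD, and in HFD-IF against HFD, where 0% of 12857 genes were called in each, and 0 of 8 in CC-IF against CC, where 0.00778% were. Unadjusted p was under 0.05 for 436, 458, 383, 1131, 977 and 822 genes in those 6 contrasts in that order, and for 0, 0, 0, 1, 0 and 2 members.

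C1qb was 15.8, 16.9 and 19.5 FPKM in CC-IF libraries, against 21.1, 22.9, 20.6 and 21.6 FPKM in CC libraries. C1qc was 19.5, 18.6 and 20.5 FPKM in CC-IF libraries, against 23.0, 23.0, 20.9 and 23.5 FPKM in CC libraries. Both genes were lower in every CC-IF than in every CC library, a non-overlap seen for 4.98% of tested genes in that direction. The log2 differences were -0.30 ± 0.14 for C1qb and -0.20 ± 0.08 for C1qc, with unadjusted p of 0.0465 and 0.0347 and limma adjusted p of 0.760 and 0.713. C1qa overlapped, at 21.4, 22.5 and 27.8 FPKM in CC-IF libraries against 27.7, 25.7, 27.4 and 29.3 FPKM in CC libraries. All 8 tested members were negative, with a median of -0.17 against -0.02 over all genes, and the 95% interval for C1qb reached -0.59. General macrophage markers had a list median of -0.01, with 4 of 10 tested genes above 0. For homeostatic microglia markers it was -0.10, with 2 of 12 above 0.

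Cd68 was 3.61, 3.57 and 3.74 FPKM in CC-IF hippocampi, against 5.04, 4.83, 3.91 and 4.71 FPKM in HFD hippocampi. It did not overlap, and neither did Tyrobp, with 13.7, 16.4 and 15.6 FPKM in CC-IF against 17.5, 22.3, 16.7 and 16.7 FPKM in HFD libraries, where 3.25% of genes were lower without overlap. The log2 differences were -0.27 ± 0.10 and -0.24 ± 0.14 (limma adjusted p = 0.455 and 0.667). All 8 tested members were negative in this contrast too, which shares the CC-IF libraries, with a median of -0.16 against 0.02 over all genes. General macrophage markers had a list median of 0.00 in this contrast, with 5 of 10 tested genes above 0. For homeostatic microglia markers it was -0.06, with 2 of 12 above 0. Neuron markers had a median of 0.11, with 6 of 7 above 0, and monocyte markers 0.09, with 3 of 4. Markers of some other cells were lower. Fibroblast markers summed to 20.9 to 22.1 FPKM in CC-IF and 24.7 to 36.4 FPKM in HFD hippocampi, border-associated macrophage markers to 5.27 to 5.73 and 6.39 to 8.98 FPKM, and endothelial markers to 21.9 to 24.2 and 26.2 to 31.6 FPKM, none of which overlapped. Choroid plexus markers summed to 22.4 to 990 FPKM in CC-IF and 43.7 to 1794 FPKM in HFD hippocampi. The list medians were -0.48 for fibroblasts, where 4 of 6 had an unadjusted p under 0.05, -0.32 for border-associated macrophages (2 of 2), -0.24 for endothelium (3 of 8) and -1.28 for choroid plexus (0 of 5). Limma called none of these genes, and their part in the values of the members was not tested. HFD-IF against HFD hippocampi gave differences of -0.17 for Cd68 to 0.17 for Trem2. Cx3cr1 was 8.71, 8.24, 6.77 and 6.54 FPKM in HFD-IF libraries against 7.13, 8.46, 6.52 and 7.62 FPKM in HFD libraries, a difference of 0.02 with a 95% interval of -0.19 to 0.23. For Trem2, the receptor, HFD-IF libraries had 4.22, 3.95, 6.39 and 4.29 FPKM against 4.28, 3.75, 5.60 and 2.86 FPKM in HFD libraries. The monocyte marker Ccr2 was at most 0.193 FPKM in any hippocampus. The monocyte markers summed to 14.65 to 18.15 FPKM in HFD and 12.48 to 17.81 FPKM in HFD-IF hippocampi. The sums were 15.58 to 20.84 FPKM in CC and 15.31 to 19.3 FPKM in CC-IF hippocampi. By that sum no hippocampus stood apart from the rest as HFD-IF liver library 1 did among livers. None of the genes in the marker and pathway lists was called in hippocampus in CC-IF against CC or HFD-IF against HFD.

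**Figure D5:**
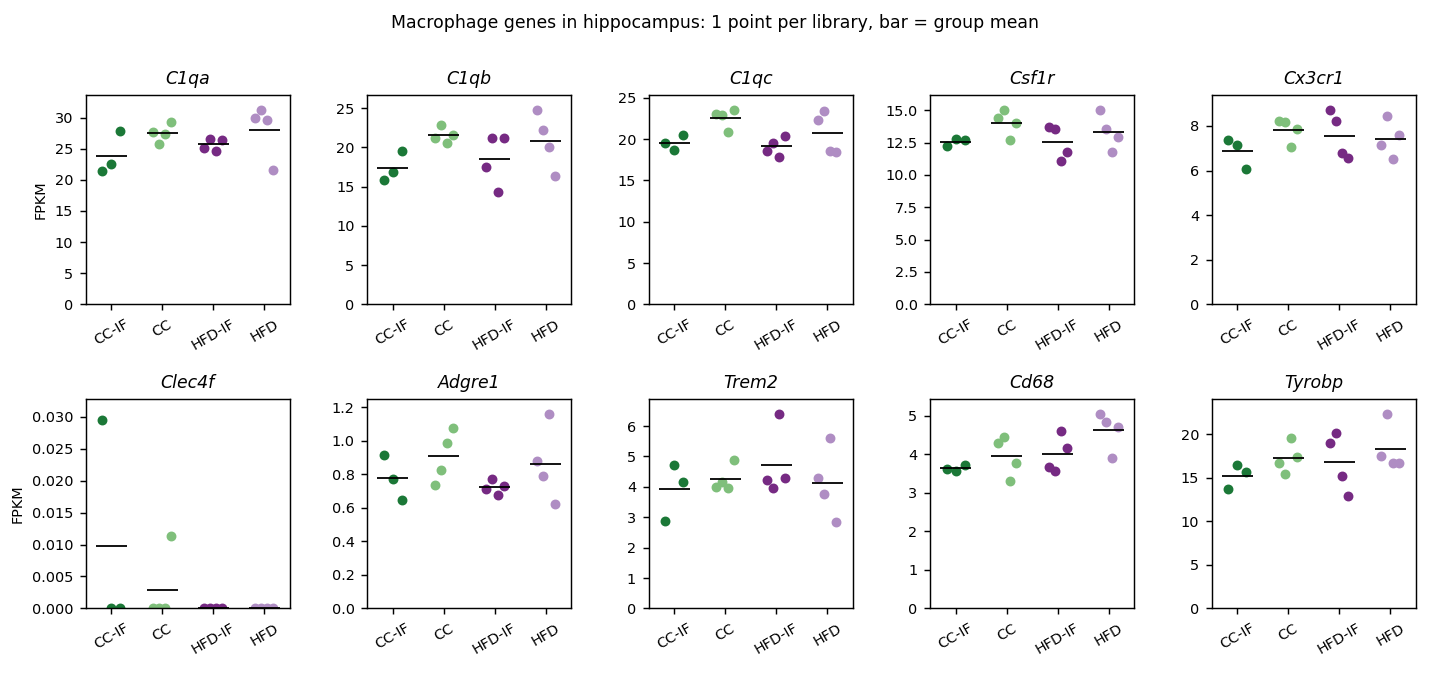
FPKM of the 10 members in every hippocampal library by regimen (CC-IF, CC, HFD-IF, HFD), with 1 point per library and a bar at the group mean. C1qb and C1qc are lower in all CC-IF than in all CC libraries, and Clec4f is at or near 0 throughout.

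The members varied together across livers, with lower coefficients across hippocampi, which is given as a description because a library's depth and composition touch all its genes. Over 14 livers, Spearman's rho between a member and the mean of the other tested members was 0.749 for Clec4f, 0.785 for Trem2 and 0.908 to 0.978 for the other 7 tested members. Pearson's r over the same 14 livers was 0.819 for Trem2 and 0.986 for C1qc. Without the 2 livers farthest from the median, CC library 1 and HFD-IF library 1, it was 0.465 for Trem2 and 0.962 for C1qc. The value for Trem2 thus rested largely on those livers. Over 15 hippocampal libraries, rho was 0.732 for C1qb, 0.682 for C1qc, 0.496 for Tyrobp and -0.164 for Trem2. The liver genes nearest to the mean profile were Itgb2, Lyz2, Cd5l, Lgmn, Vav1 and Spats2, with rho of 0.925 to 0.965. In hippocampus they were Rplp0, Rpp25l, Ryr1, Dguok, Rpl13a and Enc1, with rho of 0.839 to 0.879.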

How the data were processed

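Polyadenylated RNA of liver and hippocampus was sequenced as strand-specific paired reads of 125 nt, per the labels' protocols. The authors deposited 1 table of FPKM. Per the submitters' processing notes, the tools were Bowtie2 2.3.5.1, TopHat2 2.1.1, Trimmomatic 0.39 and FastQC 0.11.9, and the build was mm10 (GRCm38). How FPKM was computed, on which annotation and with what strand setting, is not given in the sources used here. Columns were tied to groups by name, with 0 value columns unassigned.

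Values were taken as log2(FPKM + 1), which understates the change of low genes. Genes with a mean FPKM of at least 1 in a tissue were kept, 11497 in liver and 12857 in hippocampus, and 14415 in the fit over both tissues. The 4 regimens entered 1 model per tissue in limma 3.58.1 (R 4.3.3) with a mean-variance trend. Two-sided p-values were adjusted over all genes by Benjamini-Hochberg at 0.05. The tissue fit treated all libraries as independent, since the columns do not tie tissues to animals. It compared the tissues by the average of their 4 regimen means, each with equal weight. Python 3.11.15, pandas 2.3.3, numpy 2.4.6, scipy 1.17.1 and matplotlib 3.10.9 were used for the rest, and the procedure was tested on simulated data. Depth was estimated by reading low FPKM values as whole fragments.

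All members are named, with up to 3 called genes of smallest p per list and contrast, marker genes beside the results they touch, and the 6 genes per tissue most like the members by Spearman's rho. Ligand, complement and ratio values outside that rule were chosen after their values were seen. Promoter windows of C1qa, Csf1r, Adgre1 and Tyrobp were not searched, so the motif counts cover a part of the members. The members and lists were chosen with earlier results of these data known. Alternatives were a pseudocount of 0.1, no filter, rescaling by median of ratios, array weights, only the groups compared, and leaving out each library.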

Additional observations from a re-analysis of the deposited data

Results flagged for a closer look

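In 51 groups of 4 libraries tested, 4 values stood farther from the rest of their group than Dixon's test allows at 95%, and chance flags about 1 in 20 such groups. Trem2 was 1.717 FPKM in CC liver library 1, against 0.615 to 0.658 FPKM in the other CC livers. Trem2 was 2.346 FPKM in CC-IF liver library 0, against 0.346 to 0.627 FPKM in the other CC-IF livers. Trem2 was 6.389 FPKM in HFD-IF hippocampus library 2, against 3.95 to 4.30 FPKM in the other HFD-IF hippocampi. Tyrobp was 22.28 FPKM in HFD hippocampus library 1, against 16.7 to 17.5 FPKM in the other HFD hippocampi. The HFD-IF livers, with 2 libraries, were too few for this test.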

How the results depend on the processing

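Leaving out an HFD-IF liver changed most. Over all runs that left out 1 library, members called ranged from 0 to 6 for HFD-IF against HFD livers, 0 to 9 for CC-IF against HFD-IF, 0 to 9 for the interaction, 0 to 2 for CC-IF against CC, 0 to 1 for CC-IF against HFD and 8 to 10 for liver against hippocampus. No member was called in the other contrasts. For CC-IF against CC livers, 2 members were called with array weights and 2 with only the compared groups, and 0 with no filter, when more genes were tested. For CC-IF against HFD livers, 1 was called with only the compared groups. The log2 change of HFD-IF against HFD livers ranged from -0.489 to 1.254 for C1qa, -0.968 to 1.348 for C1qb, -0.57 to 1.349 for C1qc, -0.713 to 0.962 for Csf1r, -0.427 to 0.615 for Clec4f, -0.518 to 1.321 for Adgre1, -0.419 to 2.187 for Cd68 and -0.643 to 1.793 for Tyrobp. Trem2 in CC-IF against CC ranged from -0.361 to 0.127 in liver and from -0.23 to 0.049 in hippocampus, and Csf1r in liver against hippocampus from -0.057 to 0.362. Rescaling by median of ratios left 8 members called between tissues, Tyrobp having a limma adjusted p of 0.111. The cause of these shifts was not tested. No paired analysis was possible because the columns carry an index from 0 and not the replicate numbers of the labels. FPKM without counts limits precision for low genes, such as Cx3cr1 in liver, with an estimated 3.5 to 180 fragments per library.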
